A study of Mus musculus with 2 samples.

Results

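Rpph1 and Rmrp, the RNA components of RNase P and RNase MRP, were followed through 2 single-nucleus RNA libraries of the mouse myoblast line C2C12. They were chosen by symbol among the 55414 genes of the deposited matrices, and they occupy 3 gene entries because Rmrp is listed under 2 identifiers. One library came from methanol-fixed nuclei incubated with yeast poly(A) polymerase (yPAP) for 25 min at 37 °C. The other came from fixed nuclei processed by the standard protocol without that step, so the enzyme and the warm incubation cannot be told apart. Both are from the unmodified cell line, each group is 1 library, and there are no replicates, so no test between groups was made and every interval given here covers counting error only.

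RNase P is the ribonucleoprotein that removes the 5′ leader of precursor tRNAs, and RNase MRP is its close relative, which acts in the nucleolus on precursor ribosomal RNA. Their RNAs form the catalytic core, they share most of their protein subunits, and both are transcribed by RNA polymerase III (Pol III). Transcripts of this polymerase end in a short run of uridines and carry no long poly(A) tail, whereas the standard library is primed by oligo(dT) on such tails.

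The RNA sequences are shown because Pol III transcripts carry no long poly(A) tail, and because the way they are annotated may bear on how they were counted. The tails themselves were not measured here. Letters are those of the GRCm39 genome with T for U, 5′ to 3′ on the minus strand, on which both genes lie. Capitals mark the 2 longest stretches that both RNAs share, of 9 bases each.
Rpph1, bases 1 to 300 (chr14:51044925-51045224): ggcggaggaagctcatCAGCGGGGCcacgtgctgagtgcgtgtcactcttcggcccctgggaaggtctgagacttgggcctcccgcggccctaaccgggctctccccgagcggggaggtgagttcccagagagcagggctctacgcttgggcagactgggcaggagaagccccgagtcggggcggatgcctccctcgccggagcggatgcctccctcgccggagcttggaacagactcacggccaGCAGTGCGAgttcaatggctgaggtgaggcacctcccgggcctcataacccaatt
Rmrp (chr4:43492783-43493063): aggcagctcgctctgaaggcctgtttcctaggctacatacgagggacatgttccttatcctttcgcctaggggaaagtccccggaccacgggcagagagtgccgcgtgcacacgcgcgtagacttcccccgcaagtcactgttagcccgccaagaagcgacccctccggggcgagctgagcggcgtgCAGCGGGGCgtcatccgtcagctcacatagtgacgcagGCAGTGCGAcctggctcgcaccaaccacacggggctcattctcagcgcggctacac
The Rpph1 RNA is 319 nt long and the Rmrp RNA 281 nt, with GC contents of 67.1% and 63.7%. The longest run of A was 2 bases in Rpph1 and 3 bases in Rmrp, so neither RNA holds a long internal A stretch. The 20 bases of the genome that follow each annotated 3′ end are shown with their longest run of T in capitals. For Rmrp a shorter run of T lies directly at the annotated end, before the run in capitals.
Rpph1, 20 bases downstream: ctcTTTTTTgatcgagatcc
Rmrp, 20 bases downstream: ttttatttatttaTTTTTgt
The longest run of T there was 6 bases for Rpph1 and 5 bases for Rmrp.

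Both genes are annotated as a single exon, and neither stands alone. The Rpph1 span lies within that of Ccnb1ip1, a gene on the same strand (51026696 to 51045263), and overlaps the start of Parp2, a DNA repair gene on the opposite strand (51044948 to 51058759). Of the 289 sequences of 31 bases (31-mers) in Rpph1, 239 also occur in a Ccnb1ip1 transcript of the GENCODE M39 annotation. Rmrp overlaps the start of Ccdc107 on the opposite strand (43492900 to 43496390). The Rmrp entries are ENSMUSG00000115420, of 281 nt, and ENSMUSG00000088088, of 271 nt, which lies inside the first with 5 bases to spare at each end. All 241 of the 31-mers of the shorter entry are therefore also in the longer, and only 10 are found in the longer entry alone.

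Each library was deposited as a kallisto matrix, which holds unique molecular identifiers (UMIs) assigned to transcripts for every barcode, and a STAR matrix, which holds UMIs of reads aligned to the genome for a subset of barcodes. Nuclei were barcodes with more than 750 UMIs and under 5% of them mitochondrial. The kallisto matrices held 6761140 UMIs with 1335 nuclei after polyadenylation and 10593453 UMIs with 1123 nuclei in the standard library, at median depths of 1088 and 996 UMIs per nucleus. By STAR there were 3758 and 8226 nuclei, with medians of 4007.5 and 1996 UMIs. The libraries had 50944 barcodes in common over all barcodes and 0 in common among kallisto nuclei. By kallisto, transcripts listed for a myoblast line were present in the nuclei of both libraries. The muscle intermediate filament gene Des had 360 and 636 UMIs and Vim had 922 and 1314. The muscle regulators Myod1 and Myf5 had 15 and 13, and 6 and 9 UMIs. Of the others listed, Cdh15 had 42 and 96, Cdh2 15 and 36, Pax7 5 and 4, and Myog 3 and 2. Epcam, Krt18 and Cdh5, markers of epithelium and endothelium, were at 0 kallisto UMIs in the nuclei of both, Ptprc and Cd68 had at most 6, and Pecam1 had 10 and 35. By STAR none was at 0, with 7 and 7 UMIs of Epcam, 5 and 2 of Krt18 and 14 and 14 of Cdh5. Ptprc had 13 and 26 STAR UMIs, Cd68 24 and 78, and Pecam1 115 and 180.

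The first question was how far the 2 RNAs were captured with and without in situ polyadenylation. Over all kallisto barcodes, Rpph1 had 4046 UMIs after polyadenylation and 8 in the standard library. Scaled to library totals this was a 792-fold difference (95% interval 402 to 1837). Rmrp had 1887 UMIs and 6 UMIs, a 493-fold difference (226 to 1344). In the standard library every barcode with a UMI of either RNA held exactly 1.

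In nuclei alone, Rpph1 had 850 UMIs against 1, which is 431 CPM (UMIs of the gene per 1000000 UMIs, 402 to 460) against 0.723 (0.0183 to 4.03). Rmrp had 347 UMIs against 1, which is 176 CPM (158 to 195) against 0.723 (0.0183 to 4.03). The log2 ratios were 9.22 (6.74 to 14.52) for Rpph1 and 7.93 (5.44 to 13.23) for Rmrp, and their width comes from the single standard UMI. Both RNAs were more than 4-fold higher after polyadenylation, as were 1.32% of the 8430 genes that reached 20 UMIs over both libraries. The median log2 ratio of those genes was -1.41. Both RNAs passed that limit through their polyadenylated counts, so their being higher is in part built into it. Among all genes of the polyadenylated nuclei Rpph1 ranked 58 and Rmrp 183 by UMIs, of 15321 detected.

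The levels of the pair were also compared with each other. In polyadenylated nuclei there were 2.45 UMIs of Rpph1 for each of Rmrp (2.16 to 2.78). Per kb of annotated RNA this was 2665 UMIs of Rpph1 and 1235 of Rmrp, a ratio of 2.16 (1.90 to 2.45). The ratio of UMIs was lower in barcodes with 1 to 100 UMIs, at 1.80 (1.67 to 1.95). Between these it was 2.50 (2.23 to 2.81) in barcodes of over 100 to 500 UMIs and 3.30 (2.60 to 4.22) in those of over 500 to 750, so it did not follow depth in 1 direction.

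Barcodes with 1 to 100 UMIs (low-UMI barcodes), far below the depth of a nucleus, are the background against which nuclei were read. They numbered 229964 in the polyadenylated library, with a median of 1 UMI. Rpph1 had 1876 UMIs in them, or 913 CPM (872 to 955), and Rmrp had 1041, or 506 CPM (476 to 538). Both were thus a larger share of UMIs in low-UMI barcodes than in nuclei, with log2 ratios of nuclei over low-UMI barcodes of -1.08 (-1.20 to -0.97) for Rpph1 and -1.53 (-1.71 to -1.35) for Rmrp. Both were over 2-fold lower in nuclei, as were 18.5% of 8018 genes, while 0.910% were over 2-fold higher and the median was -0.39. For Rpph1 that limit was not met without rRNA, rRNA-like and mitochondrial UMIs in the totals (log2 ratio -0.74, -0.86 to -0.62), against barcodes of 1 to 10 UMIs (-0.85) or with nuclei of over 1500 UMIs (-0.93). Against barcodes of over 100 to 500 UMIs neither RNA met it, with -0.23 (-0.37 to -0.10) for Rpph1 and -0.20 (-0.41 to 0.0072) for Rmrp, whose interval included 0.

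The levels were also read in classes of barcodes by depth. Rpph1 was at 777 CPM in barcodes of 1 to 10 UMIs, 926 in those of 11 to 100, 506 in those of over 100 to 500, 420 in those of over 500 to 750 and 431 in nuclei. Rmrp was at 403, 516, 202, 127 and 176 CPM in the same classes. Both were highest at 11 to 100 UMIs and were lower in the next class up, beyond the intervals of either. Between over 500 to 750 UMIs and nuclei the intervals of Rpph1 overlapped (374 to 470 and 402 to 460), while Rmrp was higher in nuclei, with intervals that ended at 156 and began at 158. In all, 46.4% of Rpph1 UMIs and 55.2% of Rmrp UMIs lay in low-UMI barcodes, which held 30.4% of all UMIs, and 21.0% and 18.4% lay in nuclei, which held 29.2%.

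**Figure D1:**
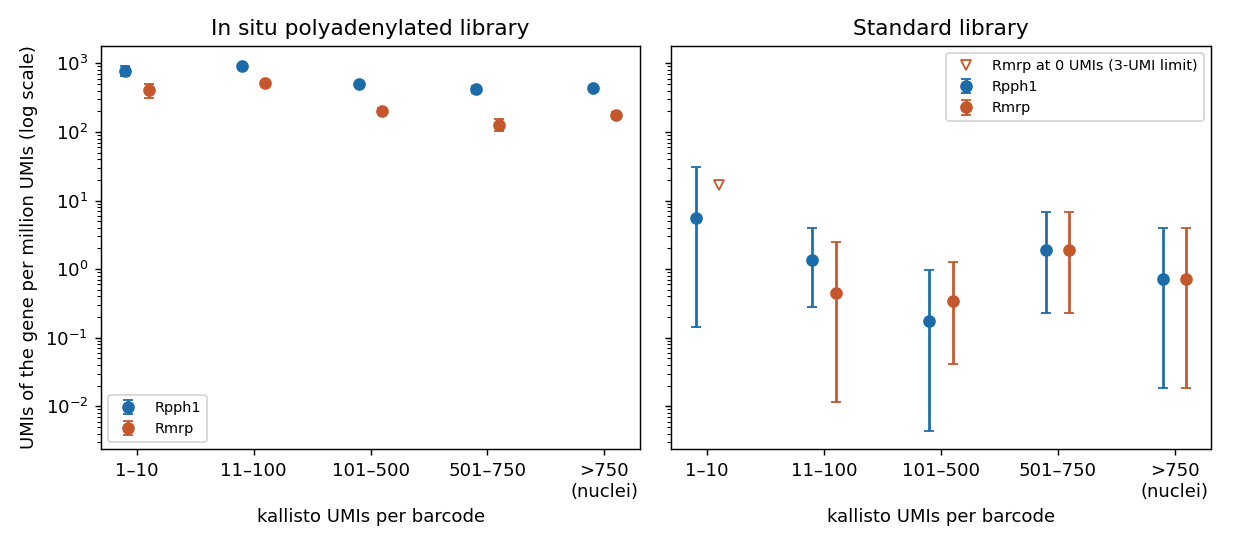
Level of Rpph1 and Rmrp in CPM (log axis) in 5 classes of barcodes by kallisto depth, for the in situ polyadenylated library (left) and the standard library (right). Points are levels, bars are exact Poisson 95% intervals and the open triangle is the limit of 3 UMIs where none was counted. On the left both genes peak at 11 to 100 UMIs, at 926 and 516, and on the right no level exceeds 5.62, while the limit for Rmrp at 1 to 10 UMIs is 16.9.

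In the standard library the low-UMI barcodes held 4 UMIs of Rpph1 and 1 of Rmrp among 2394255. For Rpph1 that is 1.67 CPM (0.455 to 4.28), and its ratio to nuclei could not be told from 1 at this depth (log2 -1.21, -6.83 to 2.13). For Rmrp both classes were under 3 UMIs and no ratio is given.

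Detection was then read nucleus by nucleus. Rpph1 had a UMI in 352 of 1335 polyadenylated nuclei, 26.4% (24.0 to 28.8), and Rmrp in 157, 11.8% (10.1 to 13.6). In standard nuclei each was seen in 1 of 1123, 0.0890% (0.00225 to 0.495). With every nucleus thinned to 750 UMIs the expected shares after polyadenylation were 19.2% and 8.48%, against 0.0832% and 0.0746% in standard nuclei, of which 3 were left out. No cell type that lacks these housekeeping RNAs exists in the data, so low-UMI barcodes are the background available. With barcodes thinned to 50 UMIs, Rpph1 was expected in 1.94% of nuclei and 2.84% of barcodes of 50 to 100 UMIs, and Rmrp in 0.798% and 2.11%. At equal depth the order was that of the levels.

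UMIs of these RNAs were concentrated in few nuclei. Nuclei with Rpph1 most often held 1 UMI (128 nuclei), but 103 held 2, 61 held 3, 28 held 4 and 32 held 5 or more, up to 17. For Rmrp the numbers were 62, 46, 19, 19 and 11, up to 7. The variance of UMIs per nucleus was 3.27 times the mean for Rpph1 and 2.78 times for Rmrp. Among the 59 genes with a total within 1.5-fold of Rpph1 the median of that value was 1.51 and 3 were higher. Of the 219 genes of like total to Rmrp the median was 1.23 and 2 were higher. Both RNAs were hence found in fewer nuclei than genes of like total, for which the median shares were 36.1% and 19.0%, and only 3 and 2 of those genes were found in fewer.

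Other short untailed RNAs did not share one pattern. Snord13 (U13 snoRNA), with 375 UMIs, reached 22.8% of nuclei with a variance of 1.15 times the mean, and Snord118 (U8 snoRNA), with 748 UMIs, reached 35.8% with 1.63 times. 7SK, the Pol III RNA that holds the elongation factor P-TEFb in check, had 1382 UMIs in 25.4% of nuclei with 25.2 times. By STAR, over the 1328 of these nuclei in that matrix, 7SK had the lowest value and not the highest. It had 1243 UMIs in 52.5% of nuclei with 1.71 times. Snord13, with 5861 UMIs, had 3.89 times and remained below Snord118, with 10120 UMIs and 6.45 times. The STAR values thus rose with the totals of these RNAs.

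Detection was also set beside depth, with nuclei divided by depth into 4 groups of 333 or 334. In the shallowest group (median 804 UMIs) Rpph1 was found in 18.9% of nuclei (14.8 to 23.5) and in the deepest (median 2278) in 42.8% (37.4 to 48.3). Rmrp was found in 8.38% (5.64 to 11.9) and 19.2% (15.1 to 23.8). The levels differed less. Rpph1 was at 424, 378, 370 and 478 CPM from the shallowest group to the deepest. The intervals of the deepest pair of groups did not overlap (315 to 432 and 435 to 524), and all other pairs did. Rmrp was at 164, 135, 168 and 197 CPM, all with overlapping intervals. The 2 RNAs were found together in 66 nuclei, which had a median of 1896.5 UMIs against 1037 in the 892 nuclei with neither. Rmrp was in 18.8% of nuclei with Rpph1 and in 9.26% of those without, a difference that this gap in depth accompanies and whose part was not tested.

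**Figure D2:**
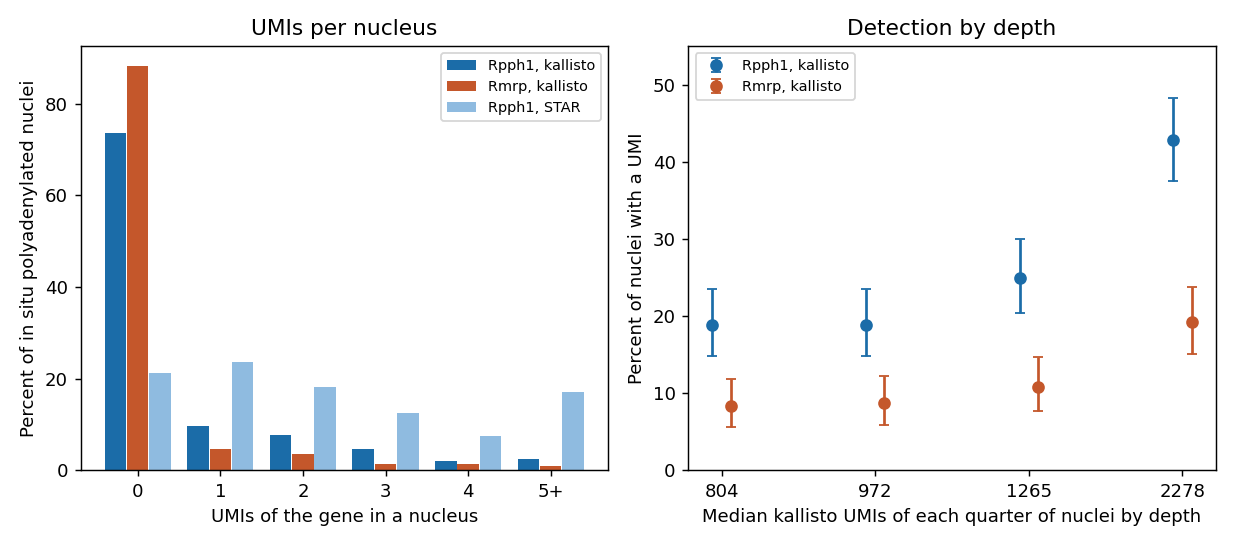
Left, percent of in situ polyadenylated nuclei by the number of UMIs of Rpph1 or Rmrp in kallisto (1335 nuclei) and of Rpph1 in STAR (the 1328 of these nuclei in that matrix). Right, percent of nuclei with a kallisto UMI in 4 groups of nuclei by depth, with exact binomial 95% intervals. Rpph1 is at 0 in 73.6% of nuclei by kallisto and 21.2% by STAR, and detection of both genes is highest in the deepest group, at 42.8% and 19.2%.

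The rRNA-like gene ENSMUSG00002075551 was at 0 UMIs in 828 polyadenylated nuclei and detected in 507, which also differed in depth, with medians of 1007.5 and 1366 UMIs. Of all UMIs, Rpph1 was at 430 CPM (390 to 472) without and 431 CPM (391 to 475) with the gene. Rmrp was at 166 (142 to 193) and 186 (160 to 215). Counted against UMIs outside rRNA, rRNA-like and mitochondrial genes, which took up 66.5% and 78.0% of the totals, Rpph1 was at 1283 (1165 to 1409) and 1962 (1778 to 2161) CPM, and Rmrp at 496 (424 to 577) and 846 (726 to 980). The gene that divides the nuclei is itself among those left out of these totals, so this second difference is in part built in. Malat1 was at 1.72% and 0.873% of UMIs in the same groups.

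The STAR matrix gave another picture of each RNA. Rpph1 had 6402 UMIs in 3758 polyadenylated nuclei and 55 in 8226 standard nuclei. That is 317 CPM (309 to 324) against 2.73 (2.05 to 3.55), a log2 ratio of 6.86 (6.48 to 7.27), and Rpph1 was among the 2.85% of 17060 genes at least 4-fold higher. It was found in 67.4% of polyadenylated nuclei (65.9 to 68.9) and 0.669% of standard nuclei (0.504 to 0.869), where no nucleus held more than 1 UMI. Thinned to 750 UMIs the shares were 20.2% and 0.207%. The sources used here do not give the strand setting of the STAR counts, so reads of Parp2 on the other strand cannot be told apart by that route. Parp2 itself had 281 STAR UMIs after polyadenylation against 1002, and Ccnb1ip1 had 164 against 925. Their log2 ratios were -1.84 and -2.50, beside a median of -1.79 for all genes by STAR. Whether reads of these genes were counted as Rpph1 was not tested.

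Rmrp had 0 STAR UMIs in both libraries, under either identifier and in every deposited barcode. In the same 1328 nuclei kallisto had counted 347 of its UMIs, all under the longer entry, and the shorter entry was at 0 by kallisto too. A count of 0 in 3758 nuclei would allow a share of up to 0.0798%, but kallisto had found Rmrp in 11.8% of nuclei that are nearly all among them, so this 0 was not read as absence of the RNA. Of 1035 genes with at least 100 kallisto UMIs in polyadenylated nuclei, 16 were at 0 by STAR in the nuclei of both libraries. Of these, 14 overlap another annotated gene on the same strand (87.5%), as do 37.1% of the 1032 genes that could be placed in the annotation. The cause was not tested.

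Nucleus by nucleus, the routes were set side by side for Rpph1. In the 1328 nuclei in both matrices it had 848 kallisto UMIs and 3443 STAR UMIs, 4.06 times as many, where all genes together had 5.86 times as many. Both routes found it in 333 nuclei, STAR alone in 714, kallisto alone in 18 and neither in 263. STAR UMIs were higher where kallisto UMIs were, with means of 1.90, 2.75, 3.93 and 6.88 in nuclei with 0, 1, 2 and 3 or more kallisto UMIs. The STAR depth of those nuclei was higher too, with medians of 6183 UMIs in the first class and 14345 in the last. The STAR level was 255.3 CPM in the first and 387 CPM in the last. By STAR, Rpph1 was in 78.8% of these nuclei, and 38 of the 66 genes of like total were in fewer. Its low detection by kallisto beside such genes was therefore not seen by STAR. Its variance by STAR was 3.94 times the mean, above that of 62 of the 66 genes.

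**Figure D3:**
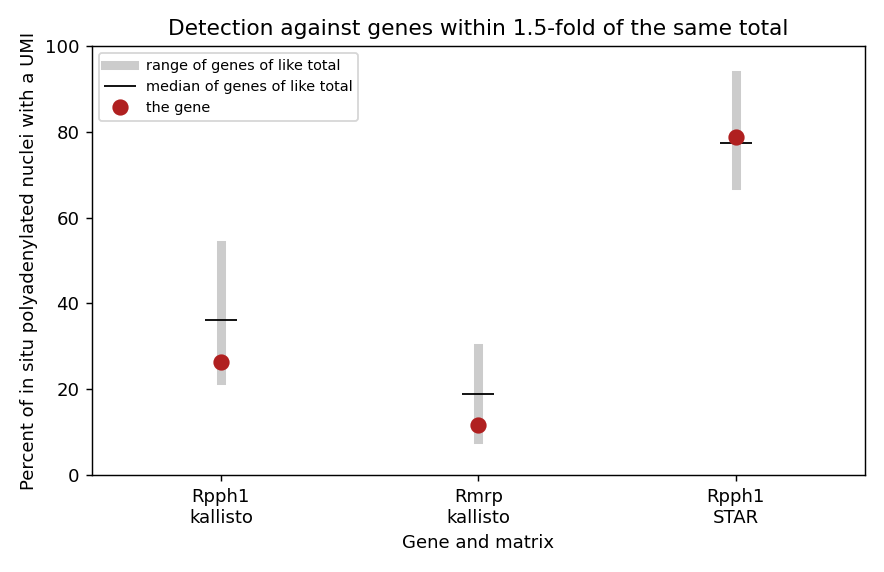
Percent of in situ polyadenylated nuclei with a UMI of Rpph1 or Rmrp (red points), beside the range (grey bar) and median (black dash) over other genes whose UMI total lies within 1.5-fold, by kallisto (1335 nuclei) and STAR (1328 nuclei). By kallisto both RNAs sit near the low end, at 26.4% and 11.8% against medians of 36.1% and 19.0%, and by STAR Rpph1 sits beside the median, at 78.8% against 77.4%.

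Near copies of the RNAs were examined because reads of near copies can be assigned to either. Rprl3, a gene of chromosome 8 (3853123 to 3853358) annotated as a ribozyme, aligned to bases 1 to 257 of Rpph1 at 86.0% identity with a longest exact match of 37 bases, and shared 13 of the 289 31-mers. Rprl2 on chromosome 3 shared 4 and Gm25043 shared 1. Rprl3 had 125 UMIs in polyadenylated nuclei and 0 in standard nuclei by kallisto, and 533 and 3 by STAR. Rprl2 had 2 and 0, and the 2 entries of Rprl1 had 0 throughout. Only 3 of 3086 barcodes with Rpph1 held a count that was not whole, as arises when a read is divided among genes. Whole counts do not show that reads were unshared. Rmrp had 0 such counts in 1529 barcodes, though 241 of its 251 31-mers are also in the shorter Rmrp entry. Rprl3 was spread more evenly over nuclei than Rpph1, with a variance of 1.10 times the mean. No other genomic match of Rmrp ran exactly over more than 21 bases. These genes were named after their values had been seen.

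Scaled to library totals, the protein partners of the RNAs were not higher with them by kallisto. Of 11 genes for protein subunits of RNase P and MRP, 4 reached 20 kallisto UMIs over the nuclei of both libraries. Their median log2 ratio was -0.93, beside -1.41 for all 8430 genes and -1.40 for 8016 protein-coding genes, and 0 of the 4 were 4-fold higher or lower, beside 17.8% of all genes lower. Pop1, the largest subunit common to both enzymes, had 64 UMIs after polyadenylation and 93 without (log2 ratio -1.05, -1.54 to -0.58). Pop5, a small subunit of both, had 9 and 17 (-1.43, -2.78 to -0.19). Rpp30 had 13 and 16 (-0.81, -1.99 to 0.34), and Rpp21, a subunit of RNase P, had 14 and 10 (-0.03, -1.30 to 1.30). The intervals of these 2 genes included 0. With the median of 2117 protein-coding genes that had 50 or more UMIs in each library (log2 -1.19) set to 0, the sign of the subunit median and those of Pop1, Rpp30 and Rpp21 turn, while Rpph1 and Rmrp remain far above 0. By STAR 9 of the 11 reached 20 UMIs, with a median of -1.94 beside -1.79 for all genes. Rpp21 was the highest of the 9, with 356 and 254 STAR UMIs, a log2 ratio of 0.48.

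Genes of adjoining steps were also lower by kallisto on the scale of library totals, where the median log2 ratio of protein-coding genes was -1.40. Elac2 was above that median, Larp7 was near it and Ssb was below it. Elac2, which removes the 3′ trailer of precursor tRNAs, had 41 and 50 UMIs (log2 ratio -0.80, -1.43 to -0.18). Ssb, the La protein that binds the uridine ends of new Pol III transcripts, had 94 and 224 (-1.77, -2.13 to -1.41), and Larp7, its relative bound to 7SK, had 35 and 68 (-1.47, -2.10 to -0.86). The protein-only RNase P of mitochondria, made of Trmt10c, Hsd17b10 and Prorp, was sparse by kallisto, with 12 UMIs in all against 33. By STAR these genes had 202 UMIs in all against 1096, of which Prorp had 135 against 867. Of the overlapping genes, Ccdc107 had 23 and 20 UMIs, Parp2 23 and 44, and Ccnb1ip1 30 and 41.

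Other Pol III RNAs served as a comparison. 7SK had 1382 UMIs against 6 in nuclei (log2 ratio 7.33, 6.21 to 8.78), the vault RNA Vaultrc5 had 24 against 1 (4.07, 1.45 to 9.43) and the Y RNA Rny1 had 17 against 1 (3.57, 0.90 to 8.96). Rny3 had 36 against 0, at least 8.41-fold higher with the 0 set to 3 UMIs per library. Bc1 had 3 against 1, too few for a ratio. Of the 5 RNAs, 3 reached 20 UMIs over both libraries and these were over 4-fold higher, as were 1.32% of all genes. All 3 passed that limit through their polyadenylated counts, with standard counts of 0 to 6 UMIs. Their being higher is therefore largely built into the limit. By STAR all 5 reached 20 UMIs and 4 were at least 4-fold higher, beside 2.85% of all genes, while Bc1 had 11 against 16 (-0.54, -1.80 to 0.65). In nuclei against low-UMI barcodes 7SK was at a log2 ratio of -0.36, beside -1.08 for Rpph1 and -1.53 for Rmrp. Bc1 was at -0.94, on 3 and 6 UMIs (-3.57 to 1.29), Rny3 was at -1.90, Rny1 at -2.67 and Vaultrc5 at -2.80. Snord13 and Snord118 were at -2.49 and -2.42.

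**Figure D4:**
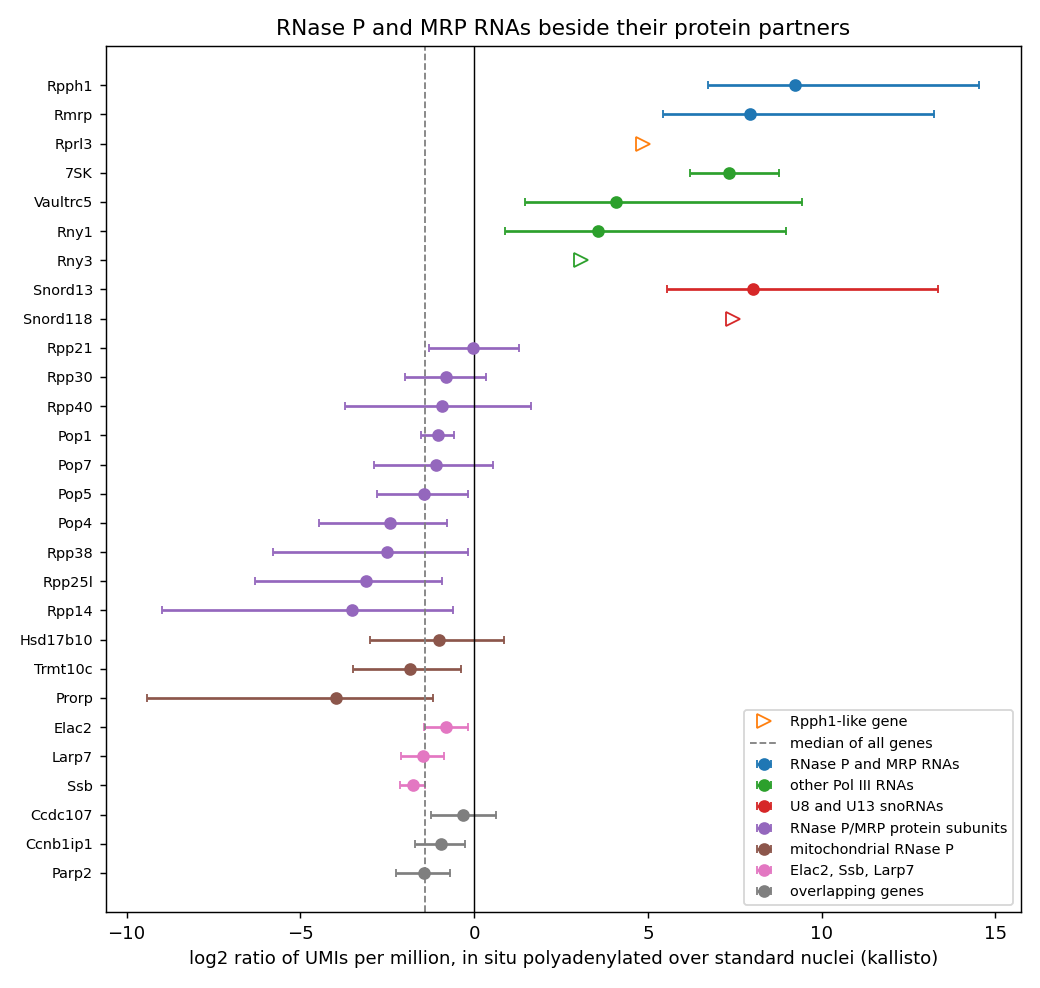
log2 ratio of CPM, in situ polyadenylated over standard nuclei by kallisto, of the RNase P and MRP RNAs, an Rpph1-like gene, other Pol III RNAs, U8 and U13 snoRNAs, protein partners and overlapping genes that had 5 or more UMIs summed over the libraries. Bars are exact 95% counting intervals, open triangles are lower bounds where the standard count was 0, and the dashed line is the median of all genes at -1.41. The short RNAs shown all lie right of 0, while Bc1, with 3 and 1 UMIs, fell under the limit and is not shown. The points of the protein-coding genes lie left of 0 on this scale of library totals. Those above -1.19 would lie right of 0 if scaled to the median of well counted protein-coding genes.

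The genes most alike in their pattern were found from 4 levels, those in nuclei and in low-UMI barcodes of each library. Distances were taken between centred log2(CPM + 1) profiles over the 406 genes with at least 200 UMIs in polyadenylated nuclei. For Rpph1 they were Tmem38b, annotated as protein-coding (distance 0.67), Rmrp (0.94), 7SK (1.18), the snoRNA Gm24616 (1.20) and Snord118 (1.43). For Rmrp they were 7SK (0.84), Rpph1 (0.94), the Cajal body RNA Scarna2 (0.95), Gm24616 (1.11) and Tmem38b (1.18). Each RNA was thus second among the neighbours of the other. Only genes well counted in polyadenylated nuclei, where both RNAs are high, could be neighbours, so a part of this likeness is built in. Standard counts of these genes were between 0 and 8 UMIs in nuclei, so the distances rest on few molecules on that side.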

How the data were processed

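C2C12 nuclei were profiled in 2 libraries, 1 in situ polyadenylated and 1 standard, without replicates. Per the submitters’ processing notes and the methods, the authors trimmed reads with cutadapt 3.4. In the first route they pseudoaligned them with kallisto 0.48.0 and bustools 0.41.0 to GRCm39 transcripts, strand-aware, and deposited estimated counts of UMIs. In the second they aligned them with STAR 2.7.10a, and deposited whole-number STAR counts of UMIs for part of the barcodes. The choice of these barcodes was not given in the sources used here. Neither matrix was normalized.

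Nuclei had over 750 UMIs and under 5% mitochondrial UMIs, which removed 0 kallisto barcodes and 1 STAR barcode in each library. Doublets were not called. Counts were summed over nuclei and rounded. Of 55414 genes, 54749 were matched by identifier to GENCODE M39, not the release the authors used, which placed genes and sequences on the same build. Shares carry exact Clopper-Pearson 95% intervals and ratios the exact conditional interval of 2 Poisson counts (scipy 1.17.1). A count of 0 was set to 3 UMIs, which makes a ratio a bound. Thinning gave the expected share without replacement. Copies were searched with BLAST+ 2.17.0. rRNA-like genes were ENSMUSG00002075551, Mir6236 and Lars2. Ratio code was tested on simulated data.

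Named genes were the pair of RNAs, 11 protein subunits, related processing and Pol III genes, and genes within 2000 bases. The 5 most alike genes were added, among those with at least 200 UMIs in polyadenylated nuclei. The members and lists were chosen with earlier results of these data known. Alternatives were other UMI minima and low-UMI ranges, the STAR matrix, other denominators and the removal of deep nuclei.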

Additional observations from a re-analysis of the deposited data

How the results depend on the processing

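No paired analysis was possible because there was 1 library per group. Of 55 values recomputed under alternatives, 33 stayed within the counting interval of the value reported (within 1.5 times for the subunit median), 21 moved and 1 changed sign. The intervals of the ratios over standard nuclei are wide, from 1 standard UMI of each RNA, so staying within them says little. Lower bounds at 1500 UMIs count as moved, though a bound leaves higher values possible. The subunit median rests on 1 gene at that minimum and at the 50-UMI limit. Removing the mitochondrial limit took out no kallisto barcode, so it says nothing about stability. The STAR matrix gives no ratio for Rmrp and none of Rpph1 to Rmrp, since Rmrp is at 0 there. Except where fewer nuclei or counts are the reason, the cause was not tested.

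With a minimum of 1500 UMIs the standard nuclei held 0 UMIs of either RNA, and the log2 ratios became lower bounds of 6.22 for Rpph1 and 4.89 for Rmrp. The share of nuclei with Rpph1 was 67.4% by STAR, 78.8% by STAR over the kallisto nuclei, 21.1% and 42.9% at minima of 500 and 1500 UMIs, and 19.2% after thinning. For Rmrp the shares were 0 and 0 by STAR, then 8.69%, 18.3% and 8.48%. The log2 ratio of nuclei over low-UMI barcodes was -0.85 for Rpph1 and -1.20 for Rmrp with a range of 1 to 10 UMIs, -0.23 and -0.20 with over 100 to 500, and -0.74 and -1.18 without rRNA, rRNA-like and mitochondrial UMIs in the totals, and that of Rpph1 was -0.93 with nuclei of over 1500 UMIs. The ratio of Rpph1 to Rmrp UMIs was 1.80 in low-UMI barcodes. The median of the subunit genes was -1.94 by STAR and turned to 0.26 with the median of well counted protein-coding genes set to 0, a scaling chosen for it after seeing the data. Leaving out the low-UMI barcodes found in both libraries, chosen after seeing the data, gave -1.09 for Rpph1 and -1.53 for Rmrp.

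With 1 UMI of each RNA in standard nuclei, a ratio is known only within its interval, and a difference between the RNAs was not detectable there.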

Other observations

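The few standard barcodes with Rpph1 or Rmrp were compared with the barcode list of the polyadenylated library. By kallisto, 5 of 8 standard barcodes with Rpph1 and 1 of 6 with Rmrp also occurred in the polyadenylated library, as did 18.4% of all standard barcodes. By STAR it was 24 of 57 with Rpph1, where 36.0% of the standard barcodes deposited with that matrix occurred there. Whether molecules passed between the libraries was not tested.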
